A study of Homo sapiens with 12 samples.

Results

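KISS1, ESM1, UCA1, GRM5 and SAMSN1 are 5 of the 60664 genes in a table of RNA counts from MDA-MB-231 cells, an established human line of triple-negative breast cancer. They were chosen by their fall in cells without CCAR2, so that the difference between CCAR2 knockout (KO) and wildtype (WT) cells in normoxia is what selected them and is given here as a description, with no test. CCAR2 encodes DBC1, a nuclear protein known as an inhibitor of the deacetylase SIRT1. The 12 libraries form 3 groups of 4: WT cells in normoxia, WT cells after 24 hr of hypoxia, and KO cells without CCAR2, also in normoxia. All 3 groups share the same parental line, and no KO cells in hypoxia are among them, so that the effect of hypoxia on the 5 genes could be examined in WT cells alone. According to the methods the knockout was made with a lentiviral CRISPR vector, and whether the KO cells are 1 clone is not stated. The methods speak of biological replicates but in numbers other than the 4 libraries of each group here, and nothing in the labels says that these 4 came from separate cultures. If they did not, p-values measure only the spread between the libraries, which may be technical.

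The 5 genes have no common pathway in textbooks. KISS1 encodes the precursor of the kisspeptins, peptide ligands of the receptor KISS1R, which control the reproductive axis from the hypothalamus, and it was named a metastasis suppressor for its action in melanoma and breast cancer cells. ESM1 encodes endocan, a secreted proteoglycan with a dermatan sulfate chain that is made by endothelial cells under VEGF and marks the tip cells of growing vessels. UCA1 is a long noncoding RNA found in bladder carcinoma and many other tumors. GRM5 encodes the metabotropic glutamate receptor mGlu5, known from neurons and astrocytes, which signals through Gq to phospholipase C. SAMSN1 encodes an adaptor with a SAM and an SH3 domain, also called SLY2 or HACS1, that is known from lymphocytes and other blood cells.

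The sums of counts per library were between 153904088 and 213743693 in WT normoxia, between 76384973 and 195621872 in WT hypoxia and between 68599412 and 152328450 in KO cells, the lowest being KO replicate 2. Levels are given in CPM, edgeR's count scaled to the size of each library after TMM normalization, and in RPKM, the same value divided by the kilobases of exon, where genes are compared with each other. The targeted gene CCAR2 had 144, 145, 146 and 151 CPM in WT normoxia, 149, 143, 154 and 152 CPM in WT hypoxia and 54.7, 56.7, 61.3 and 58.5 CPM in the KO libraries. All 4 KO libraries thus lay under all WT libraries, and 39.5% of the mean of WT normoxia was left as RNA, with no overlap between genotypes. Of the 10 markers listed for basal and mesenchymal breast cancer cells, such as VIM and CD44, all 10 passed the filter, and their summed level was 9282 to 9668 CPM in WT normoxia, 8633 to 9034 CPM in WT hypoxia and 9920 to 10502 CPM in KO cells. The sum of 10 luminal breast markers was 1437 to 1616, 1558 to 1809 and 1338 to 1462 CPM in the same order. KRT8 (means of 878, 960 and 811 CPM) and KRT18 (644, 664 and 556 CPM) made up most of it. In KO cells 7 of the 10 luminal log2 fold changes were above 0, with a median of 0.24. In the basal list 6 of 10 were above 0, with FN1 rising from 413 to 1215 CPM, while CD44 fell from 629 to 546 CPM and AXL from 1141 to 972 CPM.

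By the annotation of GENCODE 29 on GRCh38, KISS1 (ENSG00000170498) lies at chr1:204190341-204196486 on the minus strand and ESM1 (ENSG00000164283) at chr5:54977864-55022671 on the minus strand. The stretch of 250 bases before the start of transcription is shown for these genes, because both rose under hypoxia and the window could be searched for letters of a hypoxia response element. The sequences are RefSeq's of GRCh38.p14, read 5′ to 3′ on the minus strand at chr1:204196492-204196741 and chr5:54985594-54985843, and the latter start lies inside the longer gene body of GENCODE. Capitals mark every match to the letters searched. For the core of the hypoxia response element these were ACGTG, and its variant form GCGTG, on either strand. The motif of TEAD factors was written GGAATG and that of AP-1, with any base at N, as TGANTCA, again on either strand. For the TATA box they were TATAAA on the strand of the gene.
KISS1: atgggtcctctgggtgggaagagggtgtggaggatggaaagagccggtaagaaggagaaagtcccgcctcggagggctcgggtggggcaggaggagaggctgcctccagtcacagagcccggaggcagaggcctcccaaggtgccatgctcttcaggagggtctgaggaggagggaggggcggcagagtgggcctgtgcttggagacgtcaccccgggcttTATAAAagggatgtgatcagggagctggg
ESM1: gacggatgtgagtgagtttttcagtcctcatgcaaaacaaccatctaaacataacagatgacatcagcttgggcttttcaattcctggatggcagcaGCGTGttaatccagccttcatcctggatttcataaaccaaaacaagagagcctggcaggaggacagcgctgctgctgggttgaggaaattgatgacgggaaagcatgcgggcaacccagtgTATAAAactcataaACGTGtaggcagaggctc
KISS1 had a single match, TATAAA at 29 bases before the start. ESM1 had TATAAA at 32 bases before the start, ACGTG at 18 and GCGTG at 153. Over all 35116 promoter windows of the RefSeq table, 6.8% held TATAAA, 18.5% ACGTG, 32.2% GCGTG, 43.2% either of the latter pair, 11.9% GGAATG and 6.6% TGANTCA. GC content was 63.6% in the KISS1 window and 47.6% in the ESM1 window, against a median of 58% over all windows. The table held 8 windows for 4 of the 5 genes. In the others, the upstream GRM5 window held ACGTG at 164 and the reverse of GCGTG at 211 bases before the start, the second GRM5 window held TATAAA at 87, and 1 of 4 SAMSN1 windows held TGANTCA at 62. A match describes letters and is no evidence that a factor binds there.

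KISS1, the peptide precursor, was the most abundant of the 5 genes by far. It had 154, 189, 186 and 171 CPM in the 4 libraries of WT normoxia, 265, 316, 295 and 297 CPM in WT hypoxia and 39.3, 42.0, 40.9 and 43.6 CPM in KO cells. The 3 groups did not overlap, with hypoxia highest and KO cells lowest. Its mean level rose from 175 ± 15.9 to 293 ± 20.9 CPM under hypoxia (SD, n = 4 libraries each), which is 0.74 on the log2 scale (standard error 0.07) and passed the quasi-likelihood test of edgeR with an adjusted p = 0.000103 (Benjamini-Hochberg over all genes tested). In KO cells the mean was 41.4 ± 1.84 CPM, which was 23.7% of the mean in WT normoxia (log2 fold change -2.08, standard error 0.06) and 14.1% of that in WT hypoxia (log2 fold change -2.83, standard error 0.06). In bulk RNA, fewer cells with a transcript and less RNA per cell cannot be told apart.

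ESM1, the gene of the secreted proteoglycan endocan, followed the same order of groups. Its level was 38.9, 38.9, 39.0 and 35.1 CPM in WT normoxia, 63.5, 67.5, 66.9 and 66.3 CPM in WT hypoxia and 4.47, 3.57, 4.39 and 4.87 CPM in KO cells. The libraries of a group lay close together, and no KO library came near a WT library. Under hypoxia the mean rose from 38.0 ± 1.90 to 66.0 ± 1.73 CPM (SD, n = 4 each), a log2 difference of 0.79 (standard error 0.05, edgeR adjusted p = 4.1e-06). The KO mean of 4.33 ± 0.544 CPM was 11.4% of that in WT normoxia, the lowest share among the 5 genes (log2 fold change -3.13, standard error 0.09), and 6.55% of that in WT hypoxia (log2 fold change -3.93, standard error 0.09).

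UCA1, the long noncoding RNA (ENSG00000214049, chr19:15828206-15836326, plus strand), had 9.87, 9.56, 8.81 and 8.11 CPM in WT normoxia, 16.4, 16.8, 15.9 and 17.2 CPM in WT hypoxia and 1.42, 1.28, 1.18 and 0.777 CPM in KO cells. Again the groups were apart from each other, and KO replicate 4 was the lowest library. The rise under hypoxia from 9.09 ± 0.788 to 16.6 ± 0.582 CPM (SD, n = 4 each) had the highest log2 fold change of the 5 genes, 0.86 (standard error 0.08, edgeR adjusted p = 4.7e-05). In KO cells 1.16 ± 0.275 CPM remained, 12.8% of WT normoxia (log2 fold change -2.97, standard error 0.16) and 7.02% of WT hypoxia (log2 fold change -3.84, standard error 0.16). These KO values rest on 196, 89, 182 and 102 counts. The gene overlaps LINC01764 on the opposite strand over 7648 bases, 489 of them exonic in both, and LINC01764 was listed with at most 8 counts in WT normoxia, at most 5 in WT hypoxia and 0 in KO cells. Whether the authors counted by strand is not stated in the sources used here, and without strand the reads of such a pair cannot be told apart.

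GRM5, the glutamate receptor gene (ENSG00000168959, chr11:88504576-89065945, minus strand), did not share the rise under hypoxia. It had 5.34, 4.86, 4.90 and 6.63 CPM in WT normoxia, 6.44, 4.97, 6.24 and 6.79 CPM in WT hypoxia and 1.26, 0.646, 1.34 and 2.01 CPM in KO cells. The WT groups overlapped, with 1 hypoxia library above all 4 in normoxia, while each KO library was under each WT library. The means of 5.43 ± 0.828 and 6.11 ± 0.794 CPM (SD, n = 4 each) gave a log2 fold change of 0.16 that did not pass the test (standard error 0.13, edgeR adjusted p = 0.428), and 2 standard errors around it ran from -0.10 to 0.43. The KO mean of 1.31 ± 0.559 CPM was 24.2% of WT normoxia (log2 fold change -2.03, standard error 0.25) and 21.5% of WT hypoxia (log2 fold change -2.21, standard error 0.26). GRM5 varied most among the 5 genes within KO cells, with a coefficient of variation of 42.5%, and its lowest value, 45 counts, came from KO replicate 2, the library with the smallest sum. GRM5-AS1 lies on the opposite strand over 19479 bases of the gene, of which 4364 are exonic in both. It had 104 to 295 counts in WT normoxia, 29 to 172 in WT hypoxia and 164 to 267 in KO cells, and its log2 fold change in KO cells was 0.61 (standard error 0.27, edgeR adjusted p = 0.119). Its part in the GRM5 values was not tested.

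SAMSN1, the adaptor gene of blood cells (ENSG00000155307, chr21:14485228-14658821, minus strand), did not pass the test under hypoxia either. It had 8.58, 8.68, 8.18 and 8.17 CPM in WT normoxia, 7.25, 8.67, 7.41 and 8.0 CPM in WT hypoxia and 2.2, 2.14, 2.27 and 1.87 CPM in KO cells. No hypoxia library exceeded the highest in normoxia, and the WT groups overlapped. The log2 fold change under hypoxia was -0.11 (standard error 0.08, edgeR adjusted p = 0.396), with 2 standard errors reaching from -0.28 to 0.06, for means of 8.40 ± 0.268 and 7.83 ± 0.646 CPM (SD, n = 4 each). In KO cells the mean was 2.12 ± 0.174 CPM, or 25.2% of WT normoxia (log2 fold change -1.99, standard error 0.09) and 27.1% of WT hypoxia (log2 fold change -1.89, standard error 0.11). SAMSN1-AS1 on the opposite strand had at most 4 counts in any library.

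**Figure D1:**
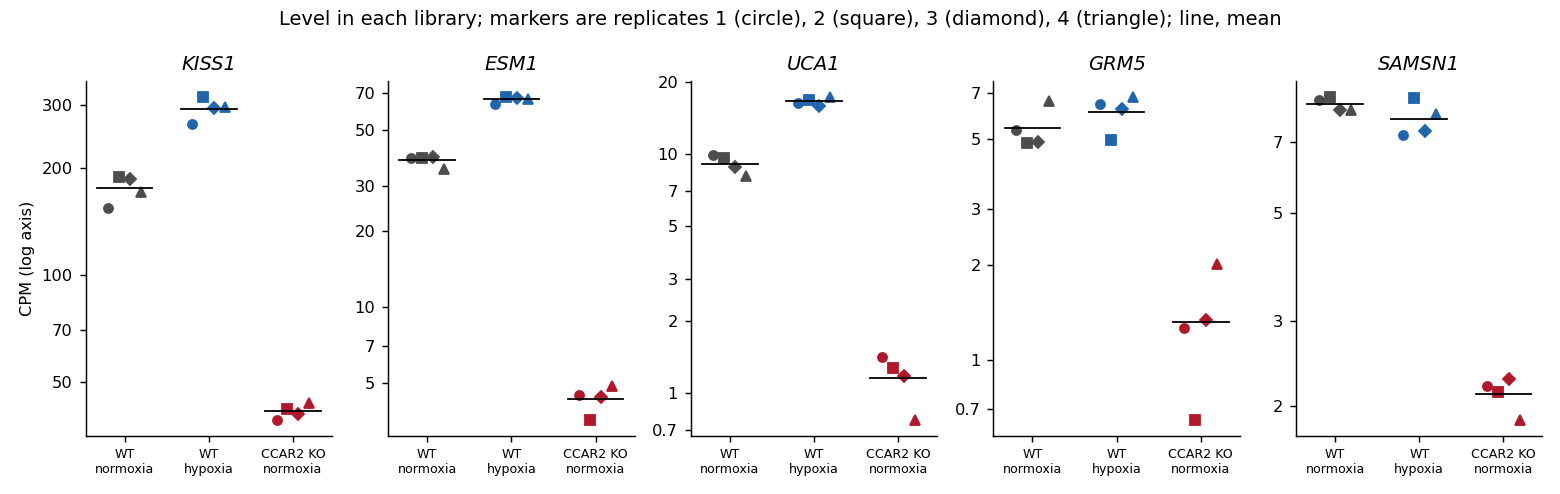
Level of each gene in every library, in CPM on a log axis that differs between panels, for WT normoxia, WT hypoxia and CCAR2 KO normoxia, with 1 marker shape per replicate number and a line at the mean. KISS1, ESM1 and UCA1 form 3 separate groups with hypoxia on top, whereas the WT groups of GRM5 and SAMSN1 overlap and KO libraries are lowest in every panel.

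Hypoxia thus separated the 5 genes into 3 that rose and 2 that did not pass the test. With genes called at an adjusted p under 0.05 and a log2 fold change of 0.5 or more in either direction, 3 of the 5 were called higher under hypoxia, where 5.83% of the 21776 genes tested were called higher, and 0 of the 5 were called lower by edgeR, DESeq2 or limma-voom or at an unadjusted p under 0.05, where edgeR called 1.43% of all genes lower. KISS1, ESM1 and UCA1 were higher in 4 of 4 hypoxia libraries than in every normoxia library, and an exact permutation test of log2 CPM, two-sided, gave p = 0.0286 for each, the smallest p that 4 against 4 libraries allow. How many of all genes tested separate in this way was not counted, so the separation cannot be set against a share over all genes. For GRM5 and SAMSN1 the exact p was 0.343 and 0.143. The log2 fold changes of UCA1, ESM1 and KISS1 were above those of 93.7%, 92.6% and 91.5% of all genes tested, and those of GRM5 and SAMSN1 above 65.7% and 34.8%. The normoxia libraries of this test are also among those on which the genes were chosen. For CCAR2 RNA itself the log2 fold change under hypoxia was 0.02 (standard error 0.05, edgeR adjusted p = 0.802).

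In each of the 4 KO libraries, all 5 genes were lower than in every library of WT normoxia, and this is what the choice asked for. In that contrast 2.94% of the 21410 genes tested were called lower and 6.73% higher. The highest KO library stood at 13.9% of the lowest library of WT normoxia for ESM1, 17.5% for UCA1, 27.8% for SAMSN1, 28.3% for KISS1 and 41.4% for GRM5. Among the 491 genes called lower that averaged 100 counts or more and did not overlap between groups, ESM1, UCA1, KISS1, GRM5 and SAMSN1 held ranks 1 to 5 by log2 fold change. The genes just outside were ENSG00000287064, which has no symbol, with -1.74, PSG1 with -1.73 and LRRN4 with -1.71, against -1.99 for SAMSN1 as the last inside. Without the limits on count and overlap, the 5 genes ranked 7, 9, 20, 21 and 22 of 629.

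**Figure D2:**
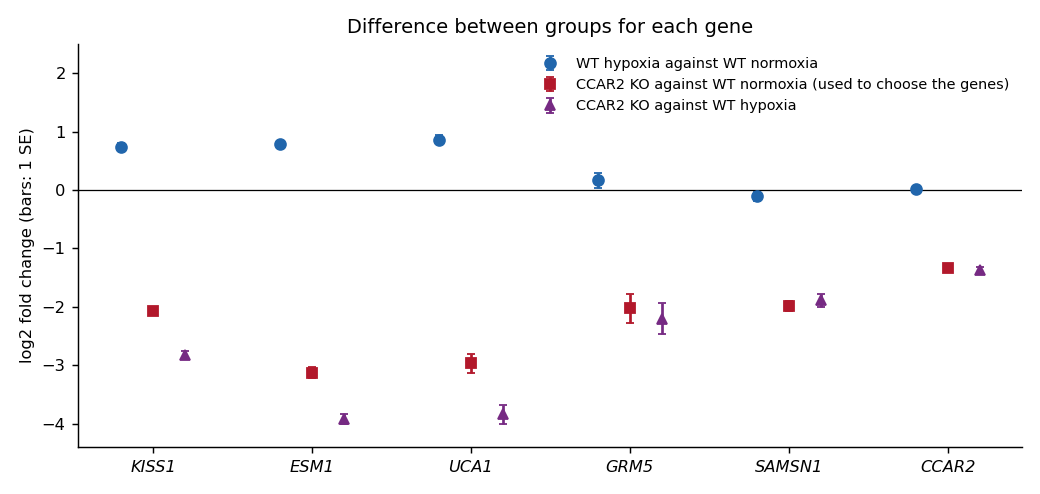
Log2 fold change of each gene and of the targeted gene CCAR2 with bars of 1 standard error (some smaller than the marker) for WT hypoxia against WT normoxia (circles), CCAR2 KO against WT normoxia (squares, the contrast that chose the genes) and CCAR2 KO against WT hypoxia (triangles). UCA1, ESM1 and KISS1 lie at 0.86, 0.79 and 0.74 under hypoxia, GRM5, SAMSN1 and CCAR2 near 0, and all squares and triangles are negative.

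Compared per length, the order of the 5 genes in WT normoxia was KISS1, ESM1, UCA1, SAMSN1 and GRM5, with mean levels of 247, 14.1, 2.19, 1.62 and 0.627 RPKM. No neighbours in that order overlapped: the lowest UCA1 library had 1.95 RPKM and the highest SAMSN1 library 1.67 RPKM. Lengths are all exon bases annotated for a gene, 4152 for UCA1 (36 transcripts) and 5185 for SAMSN1 (12 transcripts). They need not be those of the transcripts present, so the order of close genes may depend on them. In WT hypoxia the order was unchanged, with means of 414, 24.5, 3.99, 1.51 and 0.706 RPKM and no overlap. In KO cells the means were 58.4, 1.60, 0.280, 0.409 and 0.152 RPKM in the same sequence of genes, so that UCA1 stood under SAMSN1, and the ranges of UCA1 (0.187 to 0.342 RPKM) and GRM5 (0.0746 to 0.232 RPKM) overlapped. By CPM in WT normoxia, KISS1 was above 94.8% of the 22612 genes that passed the filter over the 12 libraries. ESM1 was above 75.2% of them, UCA1 above 56.3%, SAMSN1 above 55.5% and GRM5 above 51.8%, which puts the last 3 near the middle of these filtered genes.

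Several of the 5 genes are known from cells other than breast carcinoma cells, and markers of those cells were read in the same libraries. Of 10 endothelial markers, 3 were under 0.1 CPM in every WT normoxia library and ERG had no count in any of the 12 libraries. Their summed level was 245 to 265 CPM in WT normoxia, 279 to 286 CPM in WT hypoxia and 251 to 261 CPM in KO cells, of which ESAM, a junction protein, made up most with means of 247, 270 and 242 CPM. KDR had means of 6.12, 4.66 and 5.06 CPM and PECAM1 of 2.56, 3.39 and 5.51 CPM in the same order. Of 7 endothelial markers tested in KO cells, edgeR called PECAM1 higher with 1.11 (standard error 0.14) and TIE1 lower with -0.51 (standard error 0.18). Among 11 leukocyte markers CD3E had no count in WT normoxia, and CD3E and CD3D had none in KO cells. Their sum was 40.0 to 42.7, 46.8 to 51.3 and 81.2 to 87.8 CPM, higher in KO cells, in which SAMSN1 was lower, and LAPTM5, a lysosomal membrane protein of blood cells, accounted for most of it with means of 33.5, 40.4 and 77.3 CPM. CORO1A went the other way, from 6.66 in WT normoxia to 5.23 CPM in KO cells, as did PTPRC, from 0.205 to 0.0634 CPM. Of 6 leukocyte markers tested in KO cells, edgeR called 2 higher, LAPTM5 and CD14, and 0 lower, beside 6.73% and 2.94% of all genes. DESeq2 and limma-voom each called 2 higher and 1 lower. For 10 neuron and glia markers the sum was 13.8 to 14.6, 12.3 to 16.1 and 18.0 to 19.9 CPM, with AQP4 at 0 counts in both WT groups and STMN2 at 0 in WT normoxia and KO cells. Of 8 tested in KO cells, edgeR called 1 higher, SYT1, and 0 lower. SYT1 rose from 3.77 in WT normoxia to 8.07 CPM, by 1.10 on the log2 scale (standard error 0.10). GAD1, the highest in WT hypoxia with 8.33 CPM, had 7.85 CPM in KO cells. Under hypoxia 2 of 8 were called higher, GRIN1 with 0.85 (standard error 0.24) and GFAP with 0.94 (standard error 0.31), and 0 lower. The part of all these markers in the levels of the 5 genes was not tested.

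The genes that process KISS1 or act after its receptor were read as a list. Beside the counts of this list and those below, edgeR called 6.73% of all genes higher and 2.94% lower in KO cells. Under hypoxia it called 5.83% of all genes higher and 1.43% lower. In KO cells, in which KISS1 was lower, 4 of 18 tested genes of kisspeptin signalling were called higher and 2 lower, with a median log2 fold change of 0.10 against 0.01 over all genes tested. Called higher were PCSK5, a proprotein convertase, with 1.23 (standard error 0.35), ARRB1, the gene of a beta-arrestin, with 0.90 (standard error 0.06) and the membrane metalloproteinases MMP14 and MMP16 with 0.71 (standard error 0.05) and 0.58 (standard error 0.11). PCSK5 had at most 54 counts in a library and lost its call without KO replicate 1, KO replicate 3 or WT normoxia replicate 2 (edgeR adjusted p up to 0.0652), and MMP16 had a log2 fold change of 0.48 without KO replicate 1, under the threshold. PLCB2 and PLCB4, phospholipases C downstream of Gq, were called lower with -0.70 (standard error 0.14) and -0.55 (standard error 0.16). The call of PLCB4 was lost without KO replicate 2, KO replicate 3 or WT normoxia replicate 1, with log2 fold changes up to -0.43 and edgeR adjusted p up to 0.0655. Under hypoxia 1 of 18 genes, PLCB2, was called higher with 0.85 (standard error 0.11) and MMP16 lower with -1.02 (standard error 0.14), and the median was 0.16 against 0.01 over all genes. DESeq2 called 3 of the 18 higher and limma-voom 2, each with 1 lower. The receptor gene KISS1R was near the limit of detection, with at most 33 counts in any library, and had log2 fold changes of 0.01 in KO cells (standard error 0.68, edgeR adjusted p = 0.994) and 1.22 under hypoxia (standard error 0.56, edgeR adjusted p = 0.149), neither past the test.

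Of 19 other tested genes known as metastasis suppressors, edgeR, DESeq2 and limma-voom each called 4 higher and 0 lower in KO cells (median 0.10), beside 6.73% and 2.94% of all genes. This split rests on the limit on the fold, since the adjusted p of edgeR alone called 7 higher and 7 lower, and its unadjusted p under 0.05 gave 9 and 7. CD82, the tetraspanin KAI1, stood at 1.97 on the log2 scale (standard error 0.11, edgeR adjusted p = 9.7e-08), TIMP3, an inhibitor of metalloproteinases, 1.08 (standard error 0.05) and MAP2K6, a kinase of the p38 pathway, 0.80 (standard error 0.27). MAP2K6 had at most 138 counts and lost its call in 6 of the 8 fits without 1 library, with adjusted p up to 0.122. Under hypoxia 3 of 18 were called higher and 1 lower (median -0.04): NDRG1, a hypoxia-responsive gene, rose by 2.60 (standard error 0.08), MAP2K6 by 1.12 (standard error 0.27) and TXNIP, a thioredoxin-binding protein, by 0.68 (standard error 0.06), and LIFR, a cytokine receptor, had -0.57 (standard error 0.09).

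Around ESM1, genes of the endothelial tip cell and VEGF pathway rose under hypoxia in 7 of 22 cases with 0 called lower. Of all genes, 5.83% were called higher and 1.43% lower, and the median log2 fold change of the list was 0.38 against 0.01 over all genes. DESeq2 and limma-voom called the same numbers of the 22, and edgeR's unadjusted p under 0.05 gave 10 higher and 5 lower. ANGPTL4, a secreted angiopoietin-like protein, rose by 2.52 (standard error 0.07), FLT1, a VEGF receptor, by 1.33 (standard error 0.36, at most 43 counts) and APLN, the gene of the peptide apelin, by 1.26 (standard error 0.12). FLT1 was no longer called without WT normoxia replicate 3, WT normoxia replicate 4 or WT hypoxia replicate 1 (adjusted p up to 0.0647). In KO cells, in which ESM1 was lower, 7 of 22 were called higher and 2 lower, beside 6.73% and 2.94% of all genes, with a median of 0.33. ANGPT2 (1.05, standard error 0.35), UNC5B (1.03, standard error 0.32) and NRP1 (0.97, standard error 0.04), a VEGF co-receptor, were the highest, and TIE1 (-0.51, standard error 0.18) and APLN (-0.50, standard error 0.12) were the genes called lower. Only NRP1 of these 5 kept its call without each library in turn, and limma-voom called 0 of the 22 lower. VEGFA itself was called higher in both comparisons, by 1.08 under hypoxia (standard error 0.08) and 0.86 in KO cells (standard error 0.06), and is given here although it was outside the rule for named genes and was picked after its values were seen.

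The enzymes that build dermatan and chondroitin sulfate, the kind of chain that endocan carries, were read next. Under hypoxia edgeR, DESeq2 and limma-voom called 0 of 20 in either direction (median -0.02), where an unadjusted p under 0.05 would give 5 higher and 5 lower. In KO cells 2 of 19 were called higher and 0 lower by each of the 3 tools (median 0.23), beside 6.73% of all genes called higher and 2.94% lower, and the adjusted p of edgeR alone, with no limit on the fold, gave 10 higher and 2 lower. The 2 were CHPF, a chondroitin polymerizing factor, with a log2 difference of 0.73 (standard error 0.05, edgeR adjusted p = 7.1e-07) and CSGALNACT1, which starts the chain, with 0.62 (standard error 0.16, edgeR adjusted p = 0.0126).

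For UCA1, genes reported to regulate it or bind it, and targets of YAP and TEAD, which are among its known regulators, were read. Of 23 regulators and partners, edgeR called 4 higher and 1 lower in KO cells (median 0.02), beside 6.73% and 2.94% of all genes. EPAS1, which encodes HIF2α, stood at 1.42 on the log2 scale (standard error 0.05), WWTR1, the gene of the YAP relative TAZ, 0.82 (standard error 0.04), SATB1, a chromatin organizer, 0.68 (standard error 0.09), and YAP1 -0.53 (standard error 0.05). Under hypoxia, in which UCA1 rose, 0 of 23 were called higher by edgeR, DESeq2 or limma-voom, where edgeR called 5.83% of all genes higher and 1.43% lower. At an unadjusted p under 0.05, edgeR gave 0 higher and 11 lower. HIF1A RNA was called lower under hypoxia with -1.32 (standard error 0.06, edgeR adjusted p = 2.9e-07) and was among those called higher in KO cells, with 0.65 (standard error 0.04). Of 22 YAP and TEAD targets, 4 were called lower and 1 higher in KO cells, beside 2.94% and 6.73% of all genes, and the median was -0.17 against 0.01 over all genes. F3, the tissue factor gene, had -0.74 (standard error 0.04), CCDC80, an extracellular matrix protein, -0.60 (standard error 0.04), ANKRD1, an ankyrin repeat protein, -0.54 (standard error 0.05), and TGFB2, a growth factor, 0.58 (standard error 0.05). Under hypoxia 2 of 22, IGFBP3 (0.68, standard error 0.08), which binds insulin-like growth factors, and F3 (0.60, standard error 0.05), were called higher and 0 lower by edgeR, DESeq2 and limma-voom (4 lower at an unadjusted p under 0.05), with a median of -0.03. The share of all genes called higher by edgeR was 5.83%, so that these counts lie near it.

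Other metabotropic glutamate receptor genes had few counts. GRM2, GRM4, GRM6, GRM7 and GRM8 had at most 19, 13, 4, 8 and 8 counts in any library and were left out by the filter. GRM3 was called higher in KO cells with 2.64 (standard error 0.92, edgeR adjusted p = 0.0471), but it had at most 30 counts in any library and lost its call in 7 of the 8 fits without 1 library. Over the list of receptors and scaffold genes, edgeR called 3 of 19 higher and 1 lower in KO cells (median 0.01), and 3 of 17 higher and 0 lower under hypoxia by edgeR, DESeq2 and limma-voom (median 0.14, with 6 higher and 0 lower at an unadjusted p under 0.05). HOMER2, which links mGlu5 to other proteins, was called lower in KO cells with -0.55 (standard error 0.06), and SHANK2, a scaffold protein of synapses, was called higher with 0.79 in KO cells (standard error 0.24) and 1.01 under hypoxia (standard error 0.28), each call being lost without 3 of the 8 libraries. ITPR1, a calcium channel of the endoplasmic reticulum, had 0.59 in KO cells (standard error 0.07), and SHANK3, another scaffold protein of synapses, had 0.59 under hypoxia (standard error 0.10).

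Among 10 tested genes of glutamate release and uptake, edgeR, DESeq2 and limma-voom called 2 higher and 0 lower in KO cells (median 0.11, with 5 higher and 1 lower at an unadjusted p under 0.05). They were the uptake carriers SLC1A3, with 2.17 (standard error 0.46, at most 50 counts), and SLC1A1, with 0.77 (standard error 0.17). Under hypoxia SLC1A1 was called higher with 1.06 (standard error 0.16), and SLC7A11, which exports glutamate in exchange for cystine, was called lower with -0.80 (standard error 0.07), with a median of -0.26 over the list.

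SASH1, of the same family as SAMSN1, was called higher in KO cells with 0.53 (standard error 0.06, edgeR adjusted p = 4.4e-05), a value close to the threshold that dropped to 0.48 without WT normoxia replicate 2 or 3, and had -0.13 under hypoxia (standard error 0.11, edgeR adjusted p = 0.429). SASH3 had at most 9 counts in any library and was not tested. Of 12 tested SLY family and lymphoid adaptor genes, SASH1 was the 1 called higher in KO cells and 0 were called lower by edgeR, DESeq2 and limma-voom (median 0.08, with 4 higher and 1 lower at an unadjusted p under 0.05). Under hypoxia 4 of 13 were called higher and 0 lower by the same tools (7 higher and 0 lower at an unadjusted p under 0.05), with a median of 0.29. GRAP and SKAP1, adaptors of lymphocyte receptors, had 4.56 (standard error 0.78) and 1.42 (standard error 0.31), and SH2D2A, a T cell adaptor, 0.91 (standard error 0.26), all at low level, with means of 0.398, 0.471 and 0.965 CPM in hypoxia, and SH2D2A kept its call in 4 of the 8 fits without 1 library.

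The genes around the 5 in the genome were read in the same fits. Within 500 kb of the 5 gene bodies, GENCODE places 170 other genes, of which 169 are in the table. Distances are between GENCODE gene starts, and that of ESM1 lies upstream of the RefSeq start used for its promoter window. In KO cells 53 of them could be tested, with 2 called higher (6.73% of all genes were), 1 called lower (2.94% of all genes) and a median log2 fold change of 0.04. PIK3C2B, a lipid kinase gene that starts at -298.2 kb from the start of KISS1 in its direction of transcription, rose from 2.14 to 7.84 CPM, or by 1.87 on the log2 scale (standard error 0.11, edgeR adjusted p = 1.9e-07). CTSC, the gene of cathepsin C at 728.2 kb from the start of GRM5 and beyond its end, fell from 445 to 289 CPM, with a log2 difference of -0.62 (standard error 0.04, edgeR adjusted p = 1.9e-07). GZMA, a granzyme gene at -80.0 kb from the start of ESM1, was called higher with 2.14 (standard error 0.74, edgeR adjusted p = 0.0464) from 0.0318 and 0.146 CPM, and it was not called by DESeq2 or in any of the 8 fits without 1 library (adjusted p up to 0.117). Under hypoxia 55 could be tested, and edgeR, DESeq2 and limma-voom called 0 of them, where edgeR called 5.83% of all genes higher and 1.43% lower, with 5 higher and 9 lower at an unadjusted p under 0.05 and a median of -0.05.

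Which genes had levels most like those of the 5 was described by Pearson's correlation of log2 CPM over all 12 libraries, among 13977 other genes with a mean of at least 1 CPM. The 12 points fall in 3 groups and share the libraries on which the 5 genes were chosen, and no p is given. For KISS1 the first 3 were LRRC20 (r = 0.996), MSLN (0.996), the gene of mesothelin, and SLC37A4 (0.995), a glucose-6-phosphate transporter. ESM1 came at rank 6 (0.994) and UCA1 at rank 26 (0.986). For ESM1 they were LINC02582 (0.996), LRRC20 (0.995) and KISS1 itself (0.994), with UCA1 at rank 14.

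For UCA1 the first 3 were MATN2 (r = 0.994), a matrix protein, FSTL1 (0.992), a secreted glycoprotein, and KRT14 (0.992), a basal keratin, with ESM1 at rank 9 and KISS1 at rank 12. MSLN and KRT14 had log2 fold changes of 0.49 (edgeR adjusted p = 0.000292) and 0.59 (edgeR adjusted p = 0.00293) under hypoxia and -1.09 and -1.63 in KO cells, smaller than those of KISS1 and UCA1 in both. The genes most like GRM5 were RAB11FIP3 (0.971), TNS1 (0.970) and MEX3A (0.966), with ESM1 at rank 18. SAMSN1 was most like SKP2 (0.991), a subunit of a ubiquitin ligase, PRMT5 (0.990), an arginine methyltransferase, and the targeted gene CCAR2 (0.989), all with little change under hypoxia. By Spearman's rank correlation none of these 15 places was among the first 3 of its gene, and CCAR2 came at rank 3938 for SAMSN1 with a rho of 0.448.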

How the data were processed

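RNA was sequenced in 12 libraries, each placed in its group by title, genotype and treatment. Per gene the authors deposited whole numbers, not scaled to library size, which were taken as estimated counts rather than as reads. The methods name Hisat2 and StringTie, the submitters' processing notes name HISAT2, SAMtools and featureCounts, and the genome build, annotation and strand setting are not given in the sources used here. The methods name DESeq2 for the authors' comparisons. The sums per library set the precision and are given with the results. Counts were fitted for each pair of groups with edgeR 4.0.16 in R 4.3.3 (TMM, filterByExpr, glmQLFit and glmQLFTest, Benjamini-Hochberg adjustment over all genes tested), and the standard error is the absolute log2 fold change divided by the square root of F. Calls needed an adjusted p under 0.05 and a log2 fold change of 0.5 or more in either direction. For single genes an exact permutation test, two-sided, was added on the log2 CPM (prior count 2). The steps were tested on simulated data.

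The 5 genes, the lists and the tests were chosen with earlier results of these data known. Named were the 5 genes, CCAR2, from each pathway list up to 3 genes called higher and 3 called lower per comparison with the highest absolute log2 fold change, called genes within 500 kb of the 5, the 3 most correlated genes for each, and KISS1R, other GRM genes, SASH1 and SASH3. Values of a few genes that this would name are not reported here. Positions are GENCODE 29 and promoters RefSeq. Alternatives were DESeq2 1.42.0, limma-voom (limma 3.58.1), upper-quartile or RLE normalization, a filter of 10 counts in every library or none, a replicate block, a fit of all 12 libraries, leaving out each library, the adjusted p alone for lists, and Spearman's correlation.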

Additional observations from a re-analysis of the deposited data

Results flagged for a closer look

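For ESM1 in WT normoxia, replicate 4 had 35.1 CPM, while the nearest of the other 3 libraries had 38.9 CPM and the farthest 39.0 CPM. The gap to the nearest was 0.99 of the whole range of the group, above Dixon's critical value of 0.829 for 4 samples. In all, 21 groups of 4 libraries were examined and 1 exceeded that value, where chance gives about 1.05.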

How the results depend on the processing

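The log2 fold changes of the 5 genes kept their direction, and under hypoxia their side of the threshold, in all 240 of 240 alternatives over the 3 comparisons. The genes were chosen for their fall in KO cells, so their direction in the comparisons with KO cells was fixed in advance and is no support. Of the counts over all genes, 63 of 64 stayed within 1.5 times the value reported. The exception was upper-quartile normalization, with 192 genes called lower under hypoxia in place of 312. With each library left out, the log2 fold change under hypoxia was 0.68 to 0.78 for KISS1, 0.76 to 0.81 for ESM1, 0.81 to 0.90 for UCA1, 0.11 to 0.28 for GRM5 and -0.17 to -0.07 for SAMSN1, and in KO cells against WT normoxia it was -2.14 to -2.05, -3.19 to -3.06, -3.09 to -2.82, -2.30 to -1.83 and -2.02 to -1.93 in that order. The adjusted p of KISS1, ESM1 and UCA1 under hypoxia was at most 0.000794, 5.7e-05 and 0.000466 in these fits. Over all pathway lists, the adjusted p alone called 55 higher and 36 lower in KO cells in place of 28 and 10, and 35 and 23 under hypoxia in place of 21 and 4. For kisspeptin signalling under hypoxia, DESeq2 called 3 genes higher and limma-voom 2, in place of 1. Leaving out each library and limma-voom for lists, and other tools and left-out libraries for genes within 500 kb, were added after the data had been seen. In KO cells, 25 of 38 list calls were kept without each library, and under hypoxia 22 of 25. Within 500 kb, DESeq2 called 1 gene higher in KO cells in place of 2, each left-out library gave 1 higher and between 1 and 2 lower, and under hypoxia between 0 and 1 higher and between 0 and 1 lower in place of 0. By Spearman's correlation, 0 of the first 3 genes by Pearson's correlation were among the first 3 for KISS1, ESM1, UCA1, GRM5 and SAMSN1 each. The cause of these differences was not tested.

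Equal replicate numbers did not pair libraries. With group means removed, each hypoxia library correlated with its namesake in WT normoxia at r = -0.0071 to 0.065, and each KO library at r = -0.025 to 0.022. With a replicate block in the fit the log2 fold change under hypoxia was 0.74 for KISS1, 0.79 for ESM1 and 0.86 for UCA1, and 1183 genes were called higher and 324 lower. Depth limits mainly GRM5 and UCA1 in KO cells, with as few as 45 and 89 counts, and KISS1R and GRM3, with at most 33 and 30. Values are estimated counts, and no counting intervals are given.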
